A study of Rattus norvegicus with 10 samples.

Results

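The genes described are the G1 cyclins with their kinases and the inhibitor Cdkn1b: 9 genes in all, namely the D-type cyclins Ccnd1, Ccnd2 and Ccnd3, the E-type cyclins Ccne1 and Ccne2, the kinases Cdk2, Cdk4 and Cdk6, and Cdkn1b itself. They were found on the arrays through the RefSeq transcript accession that each probe carries. Every gene had 1 probe, so 9 of the 30367 probes on the array are described, and all 9 were among the 21892 probes that were tested. The genes were picked by name, with the differences between the groups on these arrays already known, so those differences are given below as a description and not as a test.

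The T arrays hold testis RNA from pups whose fathers carry a sire code with the letter T, and the C arrays from pups whose fathers carry the letter C. Fathers received BEP or saline for 9 weeks and then recovered for 9 weeks. T is read here as the BEP fathers and C as the saline fathers, an inference that no label states. BEP is the usual abbreviation of the testicular cancer chemotherapy of bleomycin, etoposide and cisplatin, and the labels spell out neither drugs nor doses. All pups were males of postnatal day 6, bred from Brown Norway males crossed with Sprague Dawley females. There were 5 one-colour arrays in each group, each from a different sire code. The number of pups behind each array is not stated in the labels used, so the spread between arrays is a spread between sires and their pups together. The arrays lay on 2 slides, of which slide 1 held 2 T and 3 C arrays and slide 2 held 3 T and 2 C arrays.

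Progress through G1, the phase in which a cell commits to another division, is driven by cyclins that bind and activate cyclin-dependent kinases. D-type cyclins respond to growth signals and activate Cdk4 and Cdk6, which begin to phosphorylate the retinoblastoma protein. E-type cyclins then activate Cdk2 at the entry into S phase. The protein of Cdkn1b, p27Kip1, binds and restrains cyclin E with Cdk2. In the rodent testis of the first postnatal week, Sertoli cells still divide and germ cells resume division, and the appearance of p27Kip1 in Sertoli cells goes with the end of their divisions.

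Cyclin E1, Cdk2 and p27Kip1 form one complex, and the promoters of their genes are shown because the table of RefSeq promoters used here (GRCr8 build, 250 bases before to 50 after the start of the gene) holds them. It holds 5 of the 9 genes, the others being Ccnd3 and Cdk4. Capitals mark matches to the GC box GGGCGG and the CCAAT box CCAAT on either strand. The Ccne1 window lies at chr1:99927860-99928159 on the minus strand, the Cdk2 window at chr7:1721829-1722128 on the minus strand and the Cdkn1b window at chr4:169491254-169491553 on the plus strand.
Ccne1: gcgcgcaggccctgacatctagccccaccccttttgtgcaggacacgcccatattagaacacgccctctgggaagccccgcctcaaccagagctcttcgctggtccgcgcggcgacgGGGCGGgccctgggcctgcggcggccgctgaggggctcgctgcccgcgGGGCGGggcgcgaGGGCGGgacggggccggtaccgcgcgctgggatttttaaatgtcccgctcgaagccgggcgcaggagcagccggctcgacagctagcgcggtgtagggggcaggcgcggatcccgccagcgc
Cdk2: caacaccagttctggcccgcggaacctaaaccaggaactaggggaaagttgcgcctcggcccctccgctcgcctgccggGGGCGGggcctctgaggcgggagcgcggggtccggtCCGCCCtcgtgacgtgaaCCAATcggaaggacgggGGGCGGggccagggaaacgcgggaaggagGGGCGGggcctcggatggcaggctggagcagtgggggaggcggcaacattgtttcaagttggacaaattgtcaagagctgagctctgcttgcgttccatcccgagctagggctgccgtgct
Cdkn1b: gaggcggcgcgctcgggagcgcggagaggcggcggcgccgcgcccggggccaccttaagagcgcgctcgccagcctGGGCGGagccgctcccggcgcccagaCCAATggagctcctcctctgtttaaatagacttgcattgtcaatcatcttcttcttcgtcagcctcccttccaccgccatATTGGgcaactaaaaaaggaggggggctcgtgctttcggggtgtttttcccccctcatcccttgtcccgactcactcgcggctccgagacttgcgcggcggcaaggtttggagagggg

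The Ccne1 window held 3 GC boxes and 0 CCAAT boxes. The Cdk2 window held 4 GC boxes and 1 CCAAT box, and the Cdkn1b window held 1 GC box and 2 CCAAT boxes. Of all 33469 windows of this length in the table, 33.1% held a GC box and 37.5% a CCAAT box. Neither the TATA box TATAAA, found in 14.2% of all windows, nor the E2F motif TTTNNCGC, found in 4.92%, matched in any of the 5 windows. Their GC content ran from 64.7% in Cdkn1b to 73.3% in Ccne1, against a median of 51.7% over all windows. These matches describe the letters of the windows, and the arrays measured no binding.

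Levels are log2 units relative to the 75th percentile of the signal on the same array, so that 0 is the level of that percentile and negative values lie under it. This percentile was at 1905 to 2536 signal units on the T arrays and at 1525 to 2686 on the C arrays. All 9 genes were well above background on all 10 arrays, and 0 of their 340 spots were saturated. Levels of different probes are not compared, since each binds with its own strength. Markers of the labelled tissue were present: 7 of 8 Sertoli cell markers, 8 of 10 germ cell markers and 4 of 5 Leydig cell markers were tested. Each of these was well above background on all 10 arrays. Sox9, Piwil4 and Sall4 had no probe assigned to them on the array, while Lhcgr was on the array but was not tested. In whole testes, fewer cells of a type and less RNA per cell cannot be told apart.

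One array stood apart for these genes. C replicate 1 had the highest level of the 10 arrays for 4 of the 9 genes (Ccnd3, Ccne1, Ccne2 and Cdk4) and the lowest for Cdkn1b. It also had the lowest 75th percentile, at 1525 units, and the highest mean deviation of the peritubular myoid markers (0.35) and of the Leydig markers (0.41). The part of these in its values was not tested, and the differences of the 9 genes and of the other named G1 genes that depend on it are also given without it.

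No difference between T and C passed the test on any probe of the array: with limma, 0 of 21892 probes had a Benjamini-Hochberg adjusted p under 0.05, a background of 0%, and so 0 of the 9 genes. At an unadjusted p under 0.05 there were 3 of the 9 genes, Ccnd2, Ccne2 and Cdkn1b, where the background over all tested probes was 3.97% (1.59% higher in T, as Cdkn1b was, and 2.38% lower in T, as Ccnd2 and Ccne2 were). These 3 belong to the values with which the genes were chosen, so nothing is read from that count. In 6 of the 9 genes the T mean lay under the C mean, as it did on 58.5% of all tested probes. The median of the 9 differences (T minus C) was -0.09 log2 units, against -0.01 over all 11561 tested genes with 1 probe a gene. Without C replicate 1 the median of the 9 was -0.03. Ccnd2 and Ccne2 stood lower and Cdkn1b higher in T, and the 6 others differed by less than the SD between arrays of a group, averaged over both groups.

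**Figure D1:**
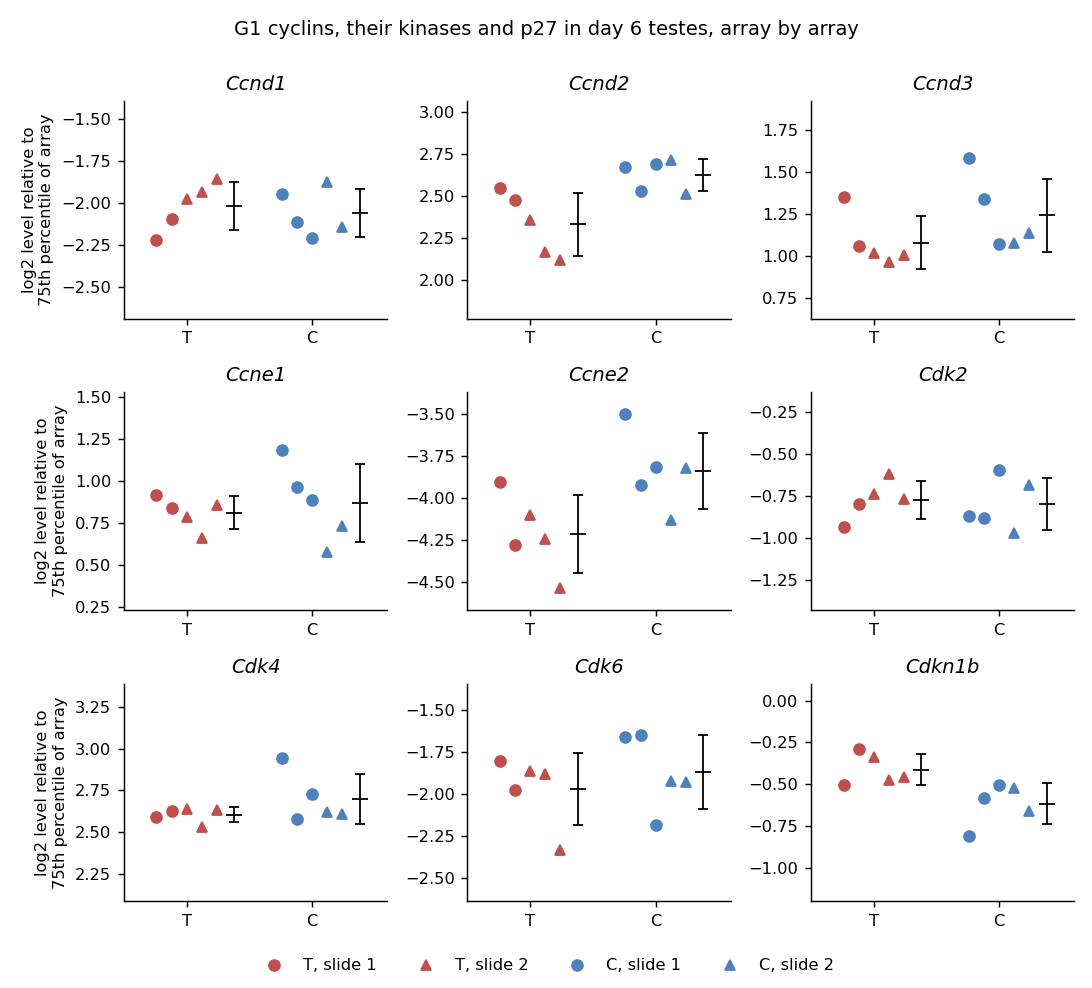
Level of each of the 9 genes on every array, as log2 units relative to the 75th percentile of the array (y axis, the same span of 1.3 log2 units in every panel). T arrays are at the left and C arrays at the right, circles are slide 1 and triangles slide 2, and the black bars give the mean ± SD of 5 arrays. For Ccnd2, 4 of 5 T arrays lie under every C array, and for Cdkn1b the lowest T array (-0.503) and the highest C array (-0.504) nearly touch.

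Among the D-type cyclins, Ccnd2 differed most between the groups. Ccnd2, the cyclin whose loss leaves male mice with small testes, stood at 2.55, 2.48, 2.36, 2.16 and 2.12 in T replicates 1 to 5, against 2.67, 2.53, 2.69, 2.72 and 2.52 in C replicates 1 to 5. All but T replicate 1 lay under every C array, and T replicates 4 and 5 were the lowest. The means were 2.33 ± 0.19 in T and 2.63 ± 0.09 in C (SD, n = 5 each), a difference of -0.29 ± 0.09 (SE) with a 95% interval of -0.50 to -0.09, or signal 1.22-fold lower in T. Without C replicate 1 it was -0.28, and on the 6 arrays whose sire numbers occur in both groups it was -0.13.

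Within slide 1 the Ccnd2 difference was -0.12, and within slide 2 it was -0.40. With slide as a block it was -0.26. The difference between the slides, tested as an interaction with limma, was -0.28 ± 0.15 (SE), with an adjusted p of 0.992 over all probes. The interaction was not called, so no dependence on the slide is read from these values. On slide 2 the 3 T arrays lay under both C arrays, while on slide 1 T replicate 1 lay above C replicate 2. T replicates 4 and 5 also had the lowest mean deviations of the 7 Sertoli markers, at -0.22 and -0.14. The summed Sertoli marker level ran from 34.8 to 45.9 on T arrays and from 38.8 to 47.4 on C arrays, in multiples of the 75th percentile. The part of this list in the Ccnd2 values was not tested.

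Ccnd1 and Ccnd3, the other D-type cyclins, differed less. Ccnd3 stood at 1.35, 1.06, 1.02, 0.97 and 1.004 in T replicates 1 to 5, against 1.59, 1.34, 1.07, 1.08 and 1.14 in C replicates 1 to 5. T replicate 1 alone reached into the range of the C arrays, of which C replicates 1 and 2 were highest. The difference was -0.16 ± 0.11 (SE), with an interval of -0.42 to 0.09, and -0.08 without C replicate 1. Ccnd1 stood at -2.22, -2.09, -1.98, -1.93 and -1.86 in T replicates 1 to 5, against -1.95, -2.12, -2.21, -1.87 and -2.14 in C replicates 1 to 5. The groups covered almost the same range, and the difference was 0.04 ± 0.09 with an interval of -0.16 to 0.24. Within slide 1 it was -0.07 and within slide 2 it was 0.09, and without C replicate 1 it was 0.07.

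Of the E-type cyclins, Ccne2 had the larger difference between the groups, and the 2 genes were not tested against each other. Ccne2 stood at -3.90, -4.28, -4.10, -4.25 and -4.54 in T replicates 1 to 5, against -3.50, -3.92, -3.81, -4.13 and -3.82 in C replicates 1 to 5. T replicate 5 was the lowest array and C replicate 1 the highest, and 3 of the 5 T arrays lay under all C arrays. The means were -4.21 ± 0.23 in T and -3.84 ± 0.23 in C (SD, n = 5 each). The difference was -0.38 ± 0.13 (SE), with an interval of -0.67 to -0.08, or signal 1.30-fold lower in T. It was -0.35 within slide 1 and -0.32 within slide 2, and -0.29 without C replicate 1. On the 6 arrays whose sire numbers occur in both groups it was -0.14.

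Ccne2 was the dimmest of the 9 probes, with 107 to 134 signal units on T arrays and 112 to 191 on C arrays. With normexp background correction and an offset of 50 units its difference was -0.24. Over the 2313 tested probes within 0.5 log2 units of its mean level, the median difference was -0.03. On C replicate 1 these probes had a median deviation of 0.17, the highest of the 10 arrays, where Ccne2 itself deviated by 0.52.

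Ccne1 gave 0.92, 0.84, 0.79, 0.66 and 0.86 in T replicates 1 to 5, against 1.19, 0.96, 0.89, 0.58 and 0.73 in C replicates 1 to 5. The C arrays spanned the whole range of the T arrays, with SDs of 0.10 in T and 0.23 in C. The difference was -0.06 ± 0.11 (SE) with an interval of -0.29 to 0.18. It was -0.13 within slide 1, 0.11 within slide 2 and 0.02 without C replicate 1.

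The kinases differed little. Cdk4, the partner of the D-type cyclins, stood at 2.59, 2.63, 2.64, 2.53 and 2.63 in T replicates 1 to 5, against 2.94, 2.58, 2.73, 2.62 and 2.61 in C replicates 1 to 5. The T arrays had an SD of 0.04, less than the error of an array's mean from its spots (0.0577), so their closeness is not resolved. C replicates 1 and 3 lay above all T arrays, the first by more. The difference of -0.09 ± 0.08 (SE, interval -0.26 to 0.08) was -0.03 without C replicate 1.

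Cdk6, the second kinase of the D-type cyclins, stood at -1.80, -1.97, -1.86, -1.88 and -2.34 in T replicates 1 to 5, against -1.66, -1.65, -2.18, -1.92 and -1.93 in C replicates 1 to 5. T replicate 5 was the lowest, C replicate 3 came next, and the groups overlapped. The difference was -0.10 ± 0.13 (SE; interval -0.39 to 0.18), with -0.05 without C replicate 1 and -0.01 without T replicate 5. Cdk2, the kinase of the E-type cyclins, stood at -0.94, -0.80, -0.74, -0.62 and -0.77 in T replicates 1 to 5, against -0.87, -0.88, -0.59, -0.97 and -0.69 in C replicates 1 to 5. Here too the groups overlapped, with a difference of 0.03 ± 0.09 (interval -0.17 to 0.22). It was -0.09 within slide 1, 0.12 within slide 2 and 0.01 without C replicate 1.

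With scaling on the 75th percentile, Cdkn1b was the single gene of the 9 on which the groups did not overlap. With quantile normalization this was Ccnd2, with all 5 T arrays lower than all C arrays, and not Cdkn1b. No share over all probes is set beside it for that normalization, so nothing is read from it. With scaling on the 75th percentile, Cdkn1b stood at -0.50, -0.29, -0.34, -0.47 and -0.45 in T replicates 1 to 5. In C replicates 1 to 5 it stood at -0.81, -0.58, -0.50, -0.52 and -0.66. T replicates 2 and 3 were the highest and C replicate 1 the lowest. The means were -0.41 ± 0.09 in T and -0.61 ± 0.12 in C (SD, n = 5 each), a difference of 0.20 ± 0.07 (SE) with an interval of 0.04 to 0.37, or signal 1.15-fold higher in T. With the same scaling, groups that did not overlap were found on 0.722% of 21870 probes with a value on every array.

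The gap between the Cdkn1b groups was narrow. The lowest T array, replicate 1, was at -0.503 and the highest C array, replicate 3, at -0.504, closer than the error of an array's mean from its spots (0.0202). The groups overlapped with normexp, quantile normalization, scaling on the median and the authors' values, where 3 or 4 of the 5 T arrays were higher than all C arrays. The difference itself was 0.23 within slide 1, 0.17 within slide 2 and 0.16 without C replicate 1. Germ cell markers, of which 7 of 8 had higher means in T, summed to 21.2 to 24.7 on T arrays and 19.6 to 22.2 on C arrays. The other cell type lists are given without a test. Higher means in T were found for 3 of 3 skeletal muscle markers (median difference 0.28) and 3 of 3 erythroid markers (0.26). The same held for 3 of 4 endothelial markers (0.17), 3 of 4 Leydig markers (0.11) and 0 of 4 peritubular myoid markers (-0.11). It held for 2 of 7 Sertoli markers (-0.05) and 2 of 5 macrophage markers (-0.04). The skeletal muscle list was dim, and 2 of its 3 tested markers were well above background on all 10 arrays. The summed levels were 0.0954 to 0.131 on T arrays and 0.0879 to 0.102 on C arrays for skeletal muscle, and 52.6 to 80.7 on T arrays and 44.2 to 74.4 on C arrays for the erythroid list. They were 2.57 to 2.94 on T arrays and 2.22 to 2.82 on C arrays for endothelium, and 11.2 to 14.1 on T arrays and 12.2 to 17.5 on C arrays for peritubular myoid cells. The part of these lists in the values of the 9 genes was not tested.

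**Figure D2:**
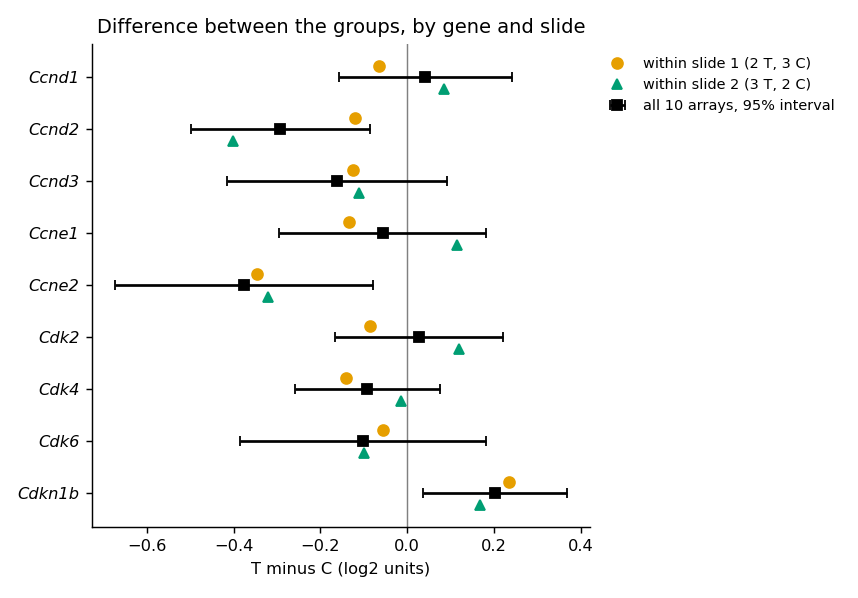
Difference T minus C in log2 units for each gene (x axis), as squares with 95% intervals over all 10 arrays, as circles within slide 1 (2 T, 3 C arrays) and as triangles within slide 2 (3 T, 2 C arrays). Ccnd2 (-0.29), Ccne2 (-0.38) and Cdkn1b (0.20) have intervals that leave out 0, and Ccnd1, Ccne1 and Cdk2 change direction between the slides. The genes were chosen with these differences known, so the intervals are a description and not a test.

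The genes did not move as one block on an array. C replicate 1 had 7 of the 9 genes above their own means and T replicate 1 had 6, while T replicate 2 and C replicate 4 had 2 each. On T replicate 5, Ccne2 deviated by -0.51, Cdk6 by -0.42 and Ccnd2 by -0.36 from their means, while Ccnd1 deviated by 0.18. On T replicate 4, Ccnd2 deviated by -0.32 and Cdk2 by 0.16.

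**Figure D3:**
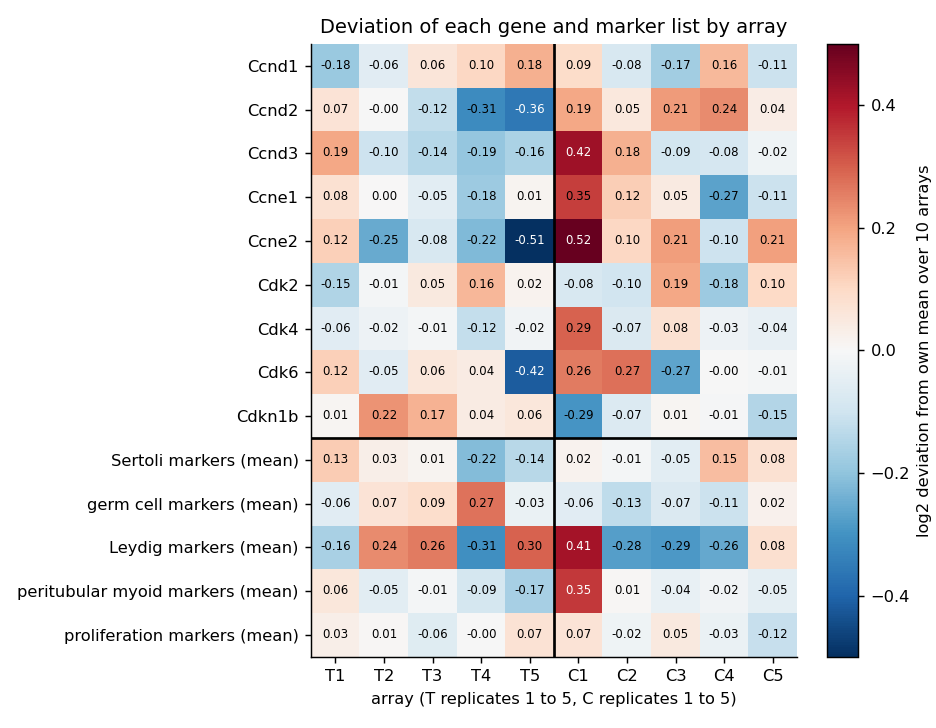
Deviation of each gene from its own mean over the 10 arrays, in log2 units (colour and printed value), above the mean deviation of 5 marker lists. Columns are T replicates 1 to 5 and then C replicates 1 to 5. C replicate 1 is high for Ccne2 (0.52), Ccnd3 (0.42) and Ccne1 (0.35) and low for Cdkn1b (-0.29), and T replicate 5 is low for Ccne2 (-0.51), Cdk6 (-0.42) and Ccnd2 (-0.36).

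The spots of each probe give the error of reading a gene within 1 array. It holds no error of labelling, hybridization, slide or scaling, so it is a lower bound on the measurement error. Cdk2 and Cdkn1b were printed on 10 spots of every array and the other genes on 2. For Ccne1 the SD between arrays of a group, averaged over both groups, was 0.178, or 11.4 times the error of an array's mean from its spots. For Ccnd3 it was 7.18 times, for Cdk2 6.56 times, for Ccnd2 5.65 times and for Cdkn1b 5.40 times that error. For Ccne2 and Cdk6 it was 2.51 times each, and for Cdk4 1.90 times. For Ccnd1 it was 0.142 against an error of 0.121, a ratio of 1.17, so that the order of the arrays for Ccnd1 is hardly resolved even by this error alone. The scanner software marked 16 Cdk2 spots and 1 Cdkn1b spot as outliers, which were left out, and 0 spots of the other genes. The errors were computed for all printed spots. That of Cdk2, and to a lesser degree that of Cdkn1b, is therefore somewhat too low and its ratio too high.

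**Figure D4:**
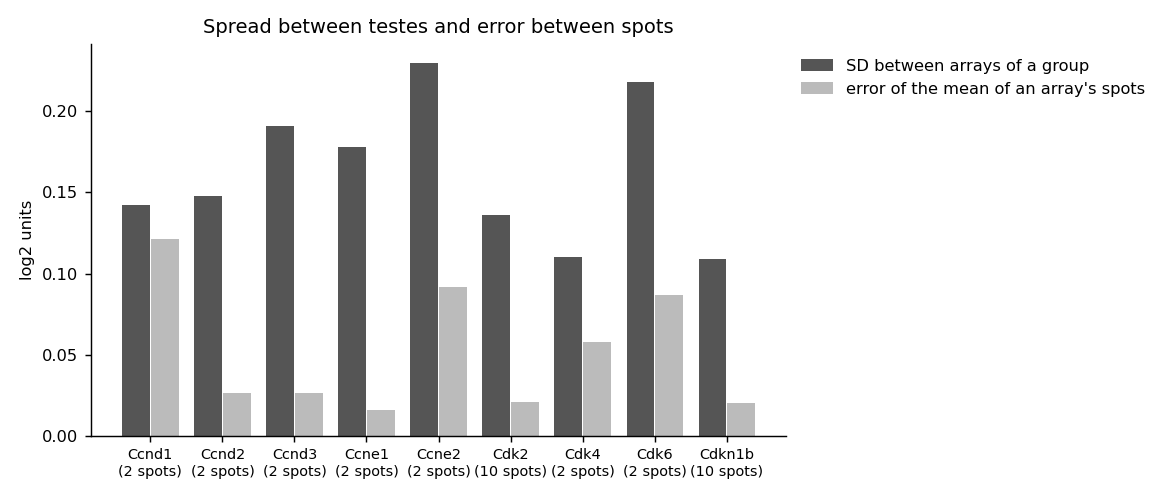
SD between arrays of a group (dark bars) and error of the mean of an array's spots (light bars) in log2 units, with the number of spots per array under each gene. The bars are almost equal for Ccnd1 (0.142 and 0.121) and far apart for Ccne1 (0.178 and 0.0156).

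Slide was the one technical factor that the choice of genes had not used, and it was tested with limma on all arrays with the group as a covariate. Each array came from a different sire code, so the slide and the sires on it cannot be told apart here. Many probes, 2143 of 21892 (9.79%), differed between slide 2 and slide 1 at an adjusted p under 0.05. Of the 9 genes 0 did, and 1 had an unadjusted p under 0.05, against a background of 24.1%. In 6 of the 9 the mean was lower on slide 2, as on 57.1% of all tested probes. The closest was Ccne1, with means of 0.72 on slide 2 and 0.96 on slide 1, a difference of -0.23 ± 0.08 (SE, limma, adjusted p = 0.118), and it was lower on slide 2 within both groups. Without C replicate 1 it was -0.18 ± 0.07 (limma, adjusted p = 0.145), and 0 of the 9 genes were called. Ccnd3 followed with -0.22 ± 0.10 (limma, adjusted p = 0.214) and Ccnd1 with 0.16 ± 0.08 (limma, adjusted p = 0.26). Cdkn1b differed by 0.01 ± 0.08 (limma, adjusted p = 0.962).

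The SD over all 10 arrays ran from 0.11 for Cdk4 to 0.29 for Ccne2, where the median of all tested probes was 0.16. Ccne2 and Cdk6, which varied most, were set against 11546 other named genes by the root mean square difference of their deviations over the 10 arrays. The nearest to Ccne2 were Phka1, a subunit of phosphorylase kinase (0.0797 log2 units), Crk, an adaptor protein of tyrosine kinase signalling, and Rrn3, an initiation factor of RNA polymerase I (both 0.127). Since they were picked for their likeness over the same 10 arrays, their differences between T and C carry no separate information. The nearest to Cdk6 were Cilp2 (0.0782), Rasa3, a GTPase-activating protein of Ras (0.0832), and Kcnd3, a potassium channel subunit (0.0839). All 6 of these probes lay at -3.98 or lower on every array.

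Other genes that act on G1 were taken from a list of 60, of which 52 had a tested probe. None of the 52 passed the limma test at an adjusted p under 0.05 (2 at an unadjusted p under 0.05, a share of 4.01% over all 11561 genes). Of the 52, 19 stood higher and 33 lower in T, or 63.5% lower, against 53.9% of all 11561 tested genes. Their median difference was -0.01, as over all tested genes, and 0.001 with slide as a block. It kept its sign in 14 of 24 alternatives. Some small differences, such as that of Tyms (-0.02, and 0.01 with slide as a block), changed sign as well. No lean of the pathway is therefore read from these counts or from the counts by role. The same 53.9% is the background for the counts by role below.

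The 2 at an unadjusted p under 0.05 were Cdkn2b and Cdkn2a, a number near the background share. Cdkn2b, which encodes the Cdk4 and Cdk6 inhibitor p15, stood at -4.87, -4.74, -4.68, -4.35 and -4.47 in T replicates 1 to 5, against -5.07, -4.79, -4.86, -5.03 and -5.02 in C replicates 1 to 5. Of the T arrays 4 lay above all C arrays. Its difference was 0.33 ± 0.11 (SE, limma, adjusted p = 0.999), with 0.10 within slide 1 and 0.53 within slide 2. Cdkn2a, which encodes p16 and the p53 regulator ARF, was 0.21 ± 0.09 higher in T (limma, adjusted p = 0.999), with means of -3.09 ± 0.21 in T and -3.30 ± 0.03 in C (SD, n = 5 each). The 1 probe was not assigned to either product. Without C replicate 1 the differences were 0.30 for Cdkn2b and 0.21 for Cdkn2a, the second with an unadjusted limma p of 0.0652. Both probes were dim. The other inhibitors of Cdk4 and Cdk6 on the list, Cdkn2c and Cdkn2d, had differences of -0.03 ± 0.08 and 0.01 ± 0.07 (SE). Over all 6 other inhibitors, these 2 included, 3 were higher and 3 lower in T.

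Among 9 pocket proteins and E2F factors, 2 were higher and 7 lower in T, with a median of -0.01. E2f1, which drives S phase genes, differed by -0.08 ± 0.07 (SE) and E2f3 by -0.07 ± 0.08, and without C replicate 1 by -0.04 for E2f1 and -0.01 for E2f3. Of 9 genes for the destruction of cyclins and p27Kip1, 2 were higher and 7 lower, with a median of -0.02. Skp2, the ubiquitin ligase subunit that marks p27Kip1 for destruction, differed by -0.18 ± 0.17, with means of -2.42 ± 0.16 in T and -2.24 ± 0.38 in C (SD, n = 5 each). Its highest array was C replicate 1, at -1.69, and without that array the difference was -0.04 ± 0.13. It was -0.44 within slide 1 and 0.17 within slide 2. Fzr1, an activator of the anaphase-promoting complex, differed by -0.05 ± 0.06.

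Of 14 S phase genes, 3 were higher and 11 lower in T, with a median of -0.03. Pola1, the catalytic subunit of DNA polymerase alpha, differed by -0.16 ± 0.07 (SE). The 5 later cyclins and their kinase had a median of 0.01, with Ccnb1, the mitotic cyclin, at 0.09 ± 0.06 and Ccnb2 at 0.02 ± 0.07. The 5 activating and braking enzymes had a median of 0.00, with the phosphatase Cdc25b at 0.13 ± 0.09 and the kinase Wee1 at 0.03 ± 0.07, and without C replicate 1 at 0.07 for both. The 4 upstream transcription factors had a median of 0.04, with Foxm1 at 0.09 ± 0.06 and Myc at 0.04 ± 0.09, the second at 0.07 without C replicate 1. Each of the genes named after Cdkn2a had a limma adjusted p of 0.999.

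**Figure D5:**
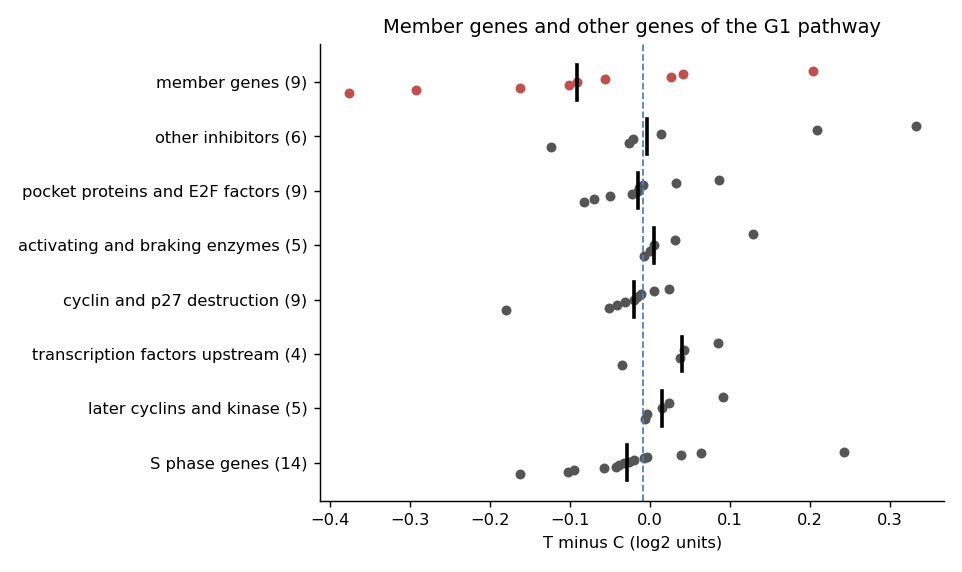
Difference T minus C in log2 units (x axis) for the 9 genes (top row, red) and for the other G1 genes by role (grey, number of tested genes in brackets), 1 point a gene. Black bars are medians, and the dashed line is the median of all 11561 tested genes (-0.01). The 9 genes run from -0.38 to 0.20, and Cdkn2b (0.33) is the highest point.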

How the data were processed

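Testis RNA of 10 samples was measured on one-colour rat arrays. Per the labels' protocols, 100 ng RNA was amplified and labelled with Cy3. Per the file headers, the deposited spot intensities were made with version 10.7.3.1 of Agilent's Feature Extraction (the submitters' processing notes give 10.7), which subtracts background and corrects trends within an array, and flags spots as outliers, saturated or well above background. The authors' deposited table of log2 values, centred per probe as its values show, with its scaling between arrays unknown, correlated at 0.9978 to 0.9987 with the scanner values and served as an alternative. Its column medians for T replicates 1 to 5 were 0.0032, 0.0037, -0.0026, -0.0169 and -0.0023, and for C replicates 1 to 5 they were 0.0288, 0.0001, -0.0166, 0.0202 and -0.0089.

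Control spots and outlier spots were left out, log2 processed signals were set relative to the 75th percentile of the array, and spots of a probe were averaged. Probes well above background on at least 5 of 10 arrays were tested (21892 of 30367, 72.1%) with limma 3.58.1 in R 4.3.3, without covariates, with Benjamini-Hochberg adjustment over all of them. For other genes with several probes, the brightest tested probe stood for the gene. Symbols came from RefSeq accessions of the GRCr8 gene table, and 12369 probes had none. The array was designed on another build, so no gene coordinates are given. The fit was tested on simulated data. Normexp used the median spot signal, since the mean was not in the files used here.

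The genes and lists were chosen with earlier results of these data known. Named were all 9 genes, the 2 list genes per role with the smallest p (1 of these is not reported here), and the 3 genes nearest in pattern to the 2 most variable ones. The probe bands of equal brightness and the ratio of Cdkn1b to Ccnd2 were added after the values were seen. Alternatives were the background correction, scaling, filter, flagged spots, variance model, slide, sire numbers, several probes of a gene, the deposited table and each array left out in turn. The number of arrays limits the precision: the median 95% interval reached 0.22 log2 units to either side.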

Additional observations from a re-analysis of the deposited data

Results flagged for a closer look

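One value lay far from the others of its group. Ccnd3 on T replicate 1 stood at 1.35 log2 units, while the other 4 T arrays ran from 0.97 to 1.06, and its gap to the nearest of them was 0.767 of the range of the group, above Dixon's 95% critical value of 0.71. Groups of 5 arrays were examined for the 9 genes, 18 in all, and chance alone flags about 1 in 20. Without T replicate 1 the Ccnd3 difference was -0.23.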

How the results depend on the processing

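The number of probes called between T and C was 0 under all 23 alternatives, and so was the number of called genes of the pathway list, whose median difference lay between -0.02 and 0.03. The median difference of the 9 genes stayed under 0 in all 24 alternatives, from -0.12 within slide 1 to -0.01 within slide 2, and from -0.12 to -0.03 when single arrays were left out. Ccnd2, Ccnd3, Ccne2 and Cdk6 kept negative differences and Cdkn1b positive ones in all 23. In that order their ranges were -0.40 to -0.12, -0.23 to -0.04, -0.45 to -0.14, -0.18 to -0.01 and 0.16 to 0.23. Changing the filter on dim probes or the variance model could not alter the differences of the 9 genes. Nor could averaging the probes of a gene, since each gene had 1 probe. All alternatives reused the same arrays or a part of them, and the 9 genes were picked with their differences known. The kept signs of these genes and of the median are therefore a description and no separate evidence of a difference. Ccnd1, Ccne1, Cdk2 and Cdk4 changed sign in 4, 4, 3 and 2 alternatives, and the cause was not tested. Probes at an unadjusted limma p under 0.05 between T and C numbered 869, and from 481 with normexp to 1151 without T replicate 1. Between the slides, 0 of the 9 genes were called in any of 18 alternatives, while the number of probes called was 2143, with 1277 without C replicate 5, 1334 without T replicate 1, 1410 without T replicate 2 and 2753 without C replicate 3 (the highest).

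The sire numbers 2, 4 and 6 occur in both groups. The deviations of arrays with the same number correlated at -0.512, 0.283 and 0.194. What such arrays share beyond the number is not settled by these correlations, and the labels used do not say. With the sire numbers as a replicate block 0 probes were called (697 at an unadjusted p under 0.05). On the same 6 arrays without the block, an alternative added after the data were seen, 0 were called (714). The median of the 9 genes was -0.04 in both, Ccnd2 was at -0.13 and Ccne2 at -0.14.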

Other observations

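A ratio of 2 probes within an array does not depend on a single scaling factor per array. Quantile normalization and normexp, which act by signal level, can change it. The log2 ratio of Cdkn1b to Ccnd2, centred on its mean over the 10 arrays, was -0.06, 0.22, 0.30, 0.36 and 0.42 on T replicates 1 to 5, against -0.48, -0.12, -0.20, -0.24 and -0.18 on C replicates 1 to 5. The groups did not overlap, but both genes were picked with their differences known and the ratio was formed after seeing them, so it is a description with no test. Markers of dividing cells gave a median difference of 0.01 over 4 tested genes (Birc5, Aurkb, Cdk1 and Ccnb1), with summed levels of 15.3 to 17.5 on T arrays and 14.8 to 17.2 on C arrays, in multiples of the 75th percentile.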
